A study of Mus musculus with 12 samples.

Results

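Collagen chains are the genes whose symbol is Col, a number, the letter a and a number. The array measures 42 of them with 82 probe sets, of 18194 genes and 45101 probe sets in all. Each gene was read from the probe set that was brightest on average over the 12 arrays, and no measured difference between groups entered the choice. They fall into 11 fibrillar chains, 10 chains of basement membranes and cell anchorage, and 21 others.

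Collagens are trimers of alpha chains wound into a triple helix, and a trimer can form from copies of the same chain or from products of different genes. In the cornea, evenly spaced fibrils of types I and V make up the transparent stroma, while type IV networks, type VII anchoring fibrils and the hemidesmosomal type XVII hold the epithelium to it. Descemet's membrane, laid down by the corneal endothelium, holds a type VIII lattice. Type III is a fibrillar collagen of skin, vessel walls and healing wounds.

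RNA came from whole corneas of C57BL/6J mice, 1 Affymetrix array per sample, which makes the total of 12 arrays. The 8 intact samples form 4 groups of 2: wild type (WT), ApoE-/- (ApoeKO), Dscr-1-/- (Dscr1KO), and null for both genes (ApoeDscr1DKO, here double KO). The 4 sutured samples are 1 array each: WT on day 5, WT on day 7, Dscr-1-/- on day 5 and Dscr-1 Tg, a Dscr1 transgenic, on day 7. Dscr1 is an older name of Rcan1, a regulator of calcineurin, and Apoe encodes a lipid-carrying apolipoprotein. Neither age nor sex is stated, nor the promoter of the transgene, nor whether a sample pools eyes or animals. The labels name the intact samples biological replicates, and p-values measure the spread between these samples.

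The signals are linear intensities with a trimmed mean of 100 on every array, and the number of arrays limits the precision. The corneal epithelial keratin gene Krt12 read 5291.1 or more on all 12 arrays, and the stromal proteoglycan gene Kera read between 441.3 and 4992.8. Rcan1 read 581.3 to 668.2 on the 4 intact arrays labelled as having Dscr1 and 331.7 to 477.5 on the 4 labelled as lacking it, so its signal was lower there but not gone; which part of the gene is deleted is not stated. Among sutured arrays it read 663.6 and 579.7 in WT on days 5 and 7 and 479.1 in Dscr1KO. The library labelled Dscr1 transgenic read 548.3, not above WT of the same day, so this signal does not bear out its label. Whether the probe set reads the transgene is not stated. Genotypes are used here as the labels give them. The library labelled ApoeKO replicate 1 read 849.3 for Apoe, against 7.5 for replicate 2. The library labelled Dscr1KO replicate 2 carries ApoE-/- in its source label and Dscr-1-/- in its title, and read 316.8 for Apoe. Xist, transcribed from the inactive X, was present at 4104 or more in 5 intact arrays (both ApoeKO, both Dscr1KO and double KO replicate 1) and read 19.6 or less on the others. Both WT arrays lack Xist and both Dscr1KO arrays have it, so sex and genotype cannot be told apart in that comparison.

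Of the 42 chains, 31 had a mean log2(intensity + 3.6) at or above the filter of 3.71 and were tested among 12706 genes. They were 9 of the 11 fibrillar, 10 of the 10 basement membrane and 12 of the 21 other chains. Just inside the filter were Col15a1 at 3.91 and Col24a1 at 4.34. Just outside were Col22a1 at 3.70 and Col25a1 at 3.68. The other chains outside were Col2a1, Col11a2, Col6a4, Col6a5, Col9a2, Col9a3, Col10a1, Col19a1 and Col26a1. Among them, Col2a1 and the type IX partners Col9a2 and Col9a3 are chains of cartilage, and Col10a1 is a chain of the growth plate. On no array did any of these 9 exceed the 15.1 that Col2a1 read in double KO replicate 1. Col15a1 had a mean of 2.24 in the 4 intact corneas with Dscr1, below the filter, and of 5.18 in the 4 without it. It passed only through arrays where it is high, so its differences are a description and support no count. The counts below speak of the 31 tested, so Col15a1 is within them without adding support.

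The effect of Dscr1 loss was read as the average over both Apoe labels, 4 intact corneas without Dscr1 against 4 with it. Changes are on the log2(intensity + 3.6) scale with their standard errors (SE), and adjusted p-values come from limma, adjusted by Benjamini-Hochberg over all genes tested. Of the 31 chains, 21 passed an adjusted p of 0.05, with 14 rising and 7 falling. Leaving Col15a1 aside they were 20 of 30, with 13 rising. Across all genes tested, 31.7% passed, 16.3% rising and 15.4% falling. The chains' median change was 0.40, against -0.02 over all genes. Fibrillar chains rose in 6 of 9 cases and fell in 0, with a median of 0.85. Basement membrane chains were divided, with 5 rising (Col15a1 among them) and 4 falling of 10. Of the 12 others tested, 3 rose and 3 fell. Values of 16 chains did not overlap between the 4 and the 4 corneas, where 34.6% of all genes did not overlap. Without Dscr1, 10 of them were higher, Col15a1 included, and 6 lower.

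**Figure D1:**
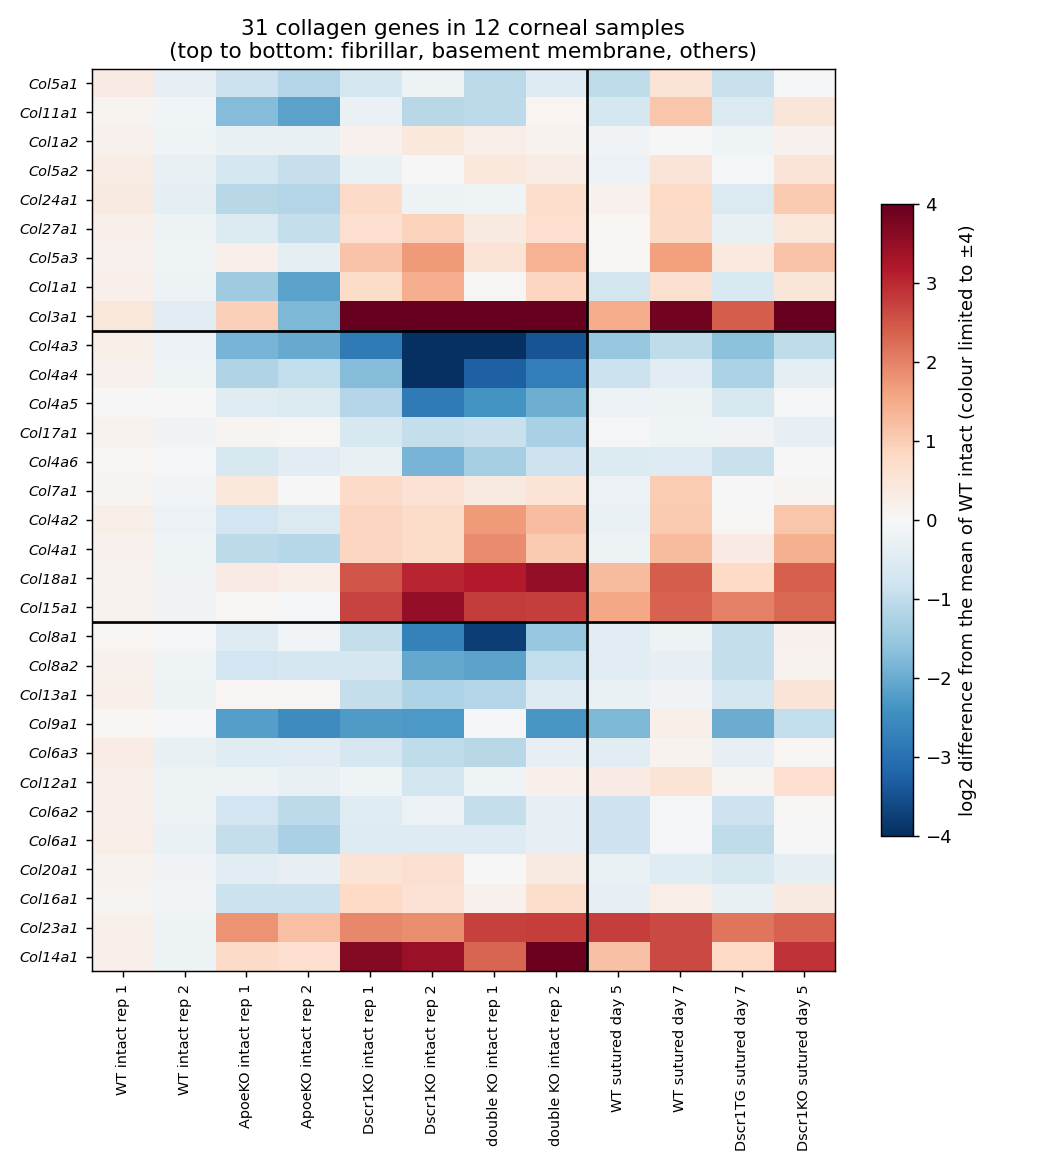
Each row is 1 of the 31 tested collagen genes and each column 1 of the 12 corneal samples; colour is the log2 difference from the mean of the 2 intact WT arrays, limited to 4 either way. Black lines separate fibrillar, basement membrane and other chains, and intact from sutured corneas. Col3a1, Col15a1, Col18a1 and Col14a1 are red and Col4a3, Col4a4 and Col4a5 blue on all 4 intact arrays without Dscr1.

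Among fibrillar chains, Col3a1, the only chain of type III collagen, stood furthest from WT. Intact WT corneas read 300.3 and 155.9, ApoeKO 424.6 and 60.2, Dscr1KO 4275.3 and 6194.2, and double KO 5739.4 and 5499. All 4 corneas without Dscr1 were at 4275.3 or more, and no cornea with Dscr1 exceeded 424.6. Col3a1 rose by 4.82 ± 0.54 (adjusted p = 0.000717), or 28.2-fold. The ApoeKO arrays lay on either side of the WT arrays.

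Col1a1 encodes the major chain of type I collagen, which makes up most of the stroma. For Col1a1, WT read 912.4 and 698.4, ApoeKO 298.6 and 180.1, Dscr1KO 1328.6 and 2199.8, and double KO 825.3 and 1442.5. The groups overlapped, since double KO replicate 1 lay below WT replicate 1, and ApoeKO was the lowest group. Averaged over the Apoe labels Col1a1 rose by 1.66 ± 0.26 (adjusted p = 0.0029). Its partner in the type I trimer, Col1a2, read between 4372.5 and 7195.3 on the 8 arrays and rose by 0.40 ± 0.12 (adjusted p = 0.0416). That call for Col1a2 was lost without any one of 6 arrays, with an adjusted p of up to 0.142. A dimmer Col1a2 probe set gave a larger change, from 1515.5 and 2506.7 in WT to between 3116.2 and 3925 in the 4 corneas without Dscr1, a rise of 1.64 ± 0.18. Probe sets of the same gene therefore disagree in size here, but not in direction.

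Type V collagen sits inside type I fibrils and limits their width. For its main chain, Col5a1, WT read 1169.1 and 736.9, ApoeKO 510.7 and 412.6, Dscr1KO 570.6 and 797.8, and double KO 438.9 and 651.7. These values overlapped throughout, with a difference of -0.12 ± 0.21 (adjusted p = 0.695). Its other 2 probe sets had the opposite sign, at 0.43 ± 0.27 (adjusted p = 0.272) and 0.51 ± 0.22 (adjusted p = 0.122), so Col5a1 has no settled direction. For Col5a2, WT read 2279.9 and 1511.5, ApoeKO 1148.2 and 968.1, Dscr1KO 1528.6 and 1828.6, and double KO 2486.1 and 2262.4. It rose by 0.51 ± 0.15 (adjusted p = 0.0402), a call lost without any one of 6 arrays (adjusted p of up to 0.15), and its second probe set differed by -0.08. For Col5a3, a less widespread type V chain, WT read 32.3 and 24.8, ApoeKO 33.3 and 20.6, Dscr1KO 66.9 and 100.4, and double KO 43.1 and 80. All 4 corneas without Dscr1 were above all 4 with it, and Col5a3 rose by 1.24 ± 0.27 (adjusted p = 0.0105). Without WT replicate 2 its adjusted p was 0.0516. On the probe sets used, the type V chains ran from -0.12 to 1.24.

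Col27a1 encodes a fibrillar collagen that forms thin filaments. For Col27a1, WT read 94.4 and 70.6, ApoeKO 54.2 and 40.7, Dscr1KO 132.5 and 156.5, and double KO 105.1 and 132.1. The groups did not overlap, and Col27a1 rose by 1.03 ± 0.17 (adjusted p = 0.00415). Of the remaining fibrillar chains tested, Col11a1 differed by 0.38 ± 0.31 (adjusted p = 0.375) and Col24a1 by 0.85 ± 0.34 (adjusted p = 0.0946), and neither passed. The second Col11a1 probe set did pass, at 0.85 ± 0.22 (adjusted p = 0.0229), so that chain's call depends on the probe set.

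**Figure D2:**
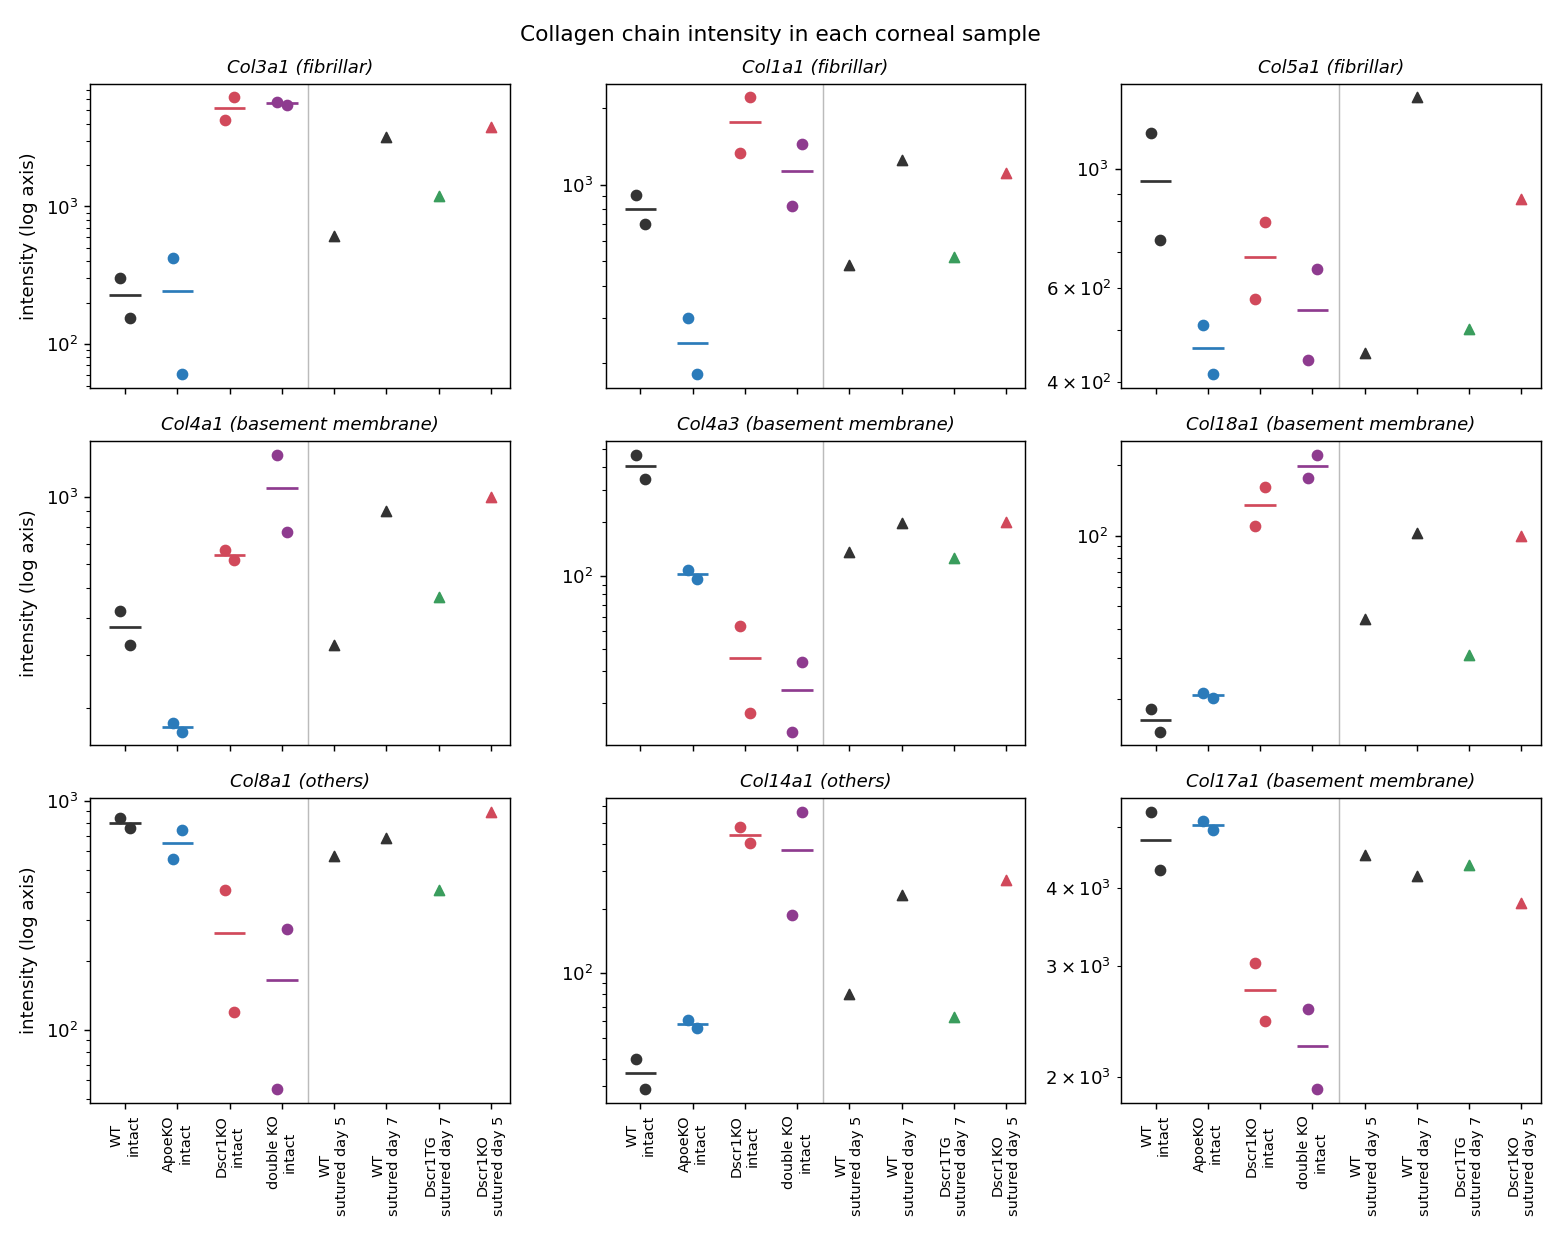
Intensity of 9 collagen chains (log axis) in each sample; circles are intact corneas, with a bar at the mean of 2, and triangles are sutured corneas, 1 array each. For Col3a1 the 4 intact corneas without Dscr1 lie at 4275.3 or more and the other 4 intact corneas at 424.6 or less, while for Col5a1 the genotypes overlap.

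Markers of other cell types and tissues moved in the same comparison. Blood vessels and their mural cells carry type III and type IV collagens. Of 7 blood endothelial markers, 6 rose, and the summed intensity of all 7 was 100.1 to 119.9 with Dscr1 and 685.7 to 1277.2 without it. The 6 that rose read 15.2 or less on every intact array with Dscr1, on average below the filter. They passed only through arrays where they are high, so that count is a description. Kdr, the other marker, read 67.5 to 86.5 with Dscr1 and made up most of the sum there. Of 6 pericyte and smooth muscle markers tested, 3 rose, with sums of 527.9 to 874.1 with Dscr1 and 2072.6 to 5296.7 without. The stromal keratocyte list of 7 had 2 falling and none rising, with sums of 17656.5 to 25194.8 with Dscr1 and 16840.1 to 19626.5 without. Conjunctival markers rose in 3 of 3 cases, with sums of 1613.4 to 2865.9 with Dscr1 and 14245 to 20462.6 without. Muc5ac, a member of that list, read 7.5 or less with Dscr1 and passed in the same way, so it adds no support. All 5 pigment and iris markers fell, with sums of 708.7 to 909 with Dscr1 and 224.4 to 482.8 without. All 6 lens markers fell too, with sums of 88.9 to 6678.4 and, without Dscr1, of 25.8 to 471.9. Without Dscr1, Tyr of the pigment list and Crygd and Bfsp2 of the lens list read 12 or less. Those genes passed only through arrays where they are high, so they add no support. The part of these cells and tissues in the collagen values was not tested, and in whole corneas a change in the number of cells and a change in RNA per cell cannot be told apart.

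Type IV collagen chains are encoded by head-to-head pairs of genes, and their products join as trimers. Col4a1 and Col4a2, the chains of nearly all basement membranes, start 21 bases apart on opposite strands of chromosome 8, and their promoter windows are shown because both genes rose. Each window, from RefSeq on GRCm38.p6, runs from 250 bases before to 50 after the annotated start, at chr8:11312777-11313076 on the minus strand for Col4a1 and chr8:11312555-11312854 on the plus strand for Col4a2. Capitals mark the 78 bases that the windows share, read on opposite strands.
Col4a1: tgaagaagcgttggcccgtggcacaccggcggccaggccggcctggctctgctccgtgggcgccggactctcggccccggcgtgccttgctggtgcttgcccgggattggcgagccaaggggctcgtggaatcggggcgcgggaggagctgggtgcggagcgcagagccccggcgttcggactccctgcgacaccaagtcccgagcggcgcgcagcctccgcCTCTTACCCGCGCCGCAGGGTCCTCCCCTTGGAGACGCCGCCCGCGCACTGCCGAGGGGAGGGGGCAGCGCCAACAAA
Col4a2: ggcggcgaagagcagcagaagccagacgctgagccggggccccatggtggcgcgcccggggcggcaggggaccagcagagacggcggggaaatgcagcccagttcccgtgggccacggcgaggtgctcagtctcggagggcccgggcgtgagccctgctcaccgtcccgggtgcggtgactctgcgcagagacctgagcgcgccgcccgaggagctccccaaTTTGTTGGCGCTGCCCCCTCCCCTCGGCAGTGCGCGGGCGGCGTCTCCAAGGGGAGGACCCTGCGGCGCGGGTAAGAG

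For Col4a1, WT read 421 and 325.5, ApoeKO 179.2 and 167.6, Dscr1KO 671.4 and 618, and double KO 1384.8 and 765. For Col4a2, WT read 187.8 and 137.7, ApoeKO 92.6 and 107.1, Dscr1KO 297.9 and 268.2, and double KO 533.1 and 381.6. For both genes every cornea without Dscr1 was above every cornea with it, ApoeKO was lowest and double KO replicate 1 highest. Col4a1 rose by 1.67 ± 0.19 (adjusted p = 0.000845) and Col4a2 by 1.47 ± 0.16 (adjusted p = 0.000705).

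Col4a3, Col4a4 and Col4a5 form the specialised type IV trimer found in the kidney glomerulus and in corneal basement membranes, and they fell where Col4a1 and Col4a2 rose. For Col4a3, WT read 467.3 and 344.1, ApoeKO 108.2 and 97.3, Dscr1KO 53.1 and 17.8, and double KO 14 and 33.7. For Col4a4, WT read 546.9 and 436, ApoeKO 208.7 and 246.5, Dscr1KO 144.5 and 24.4, and double KO 47.3 and 69.2. Both were highest in WT, intermediate in ApoeKO and lowest without Dscr1, with no overlap between corneas with and without it. Col4a3 fell by 2.79 ± 0.35 (adjusted p = 0.00119) and Col4a4 fell by 2.43 ± 0.46 (adjusted p = 0.00636).

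Col4a5 can also pair with Col4a6, its neighbour on the X chromosome, and their starts lie 1343 bases apart on opposite strands. For Col4a5, WT read 515.3 and 520.5, ApoeKO 367 and 346.8, Dscr1KO 226.8 and 69.4, and double KO 95.5 and 130.7. Its groups did not overlap, and it fell by 1.83 ± 0.32 (adjusted p = 0.00492). Col4a6 ranged from 39.4 to 67 with Dscr1 and from 14.9 to 50 without it, overlapped, and differed by -0.81 ± 0.33 (adjusted p = 0.102). The chains that rose and those that fell differed in direction within the same type IV family and the same arrays.

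The windows of this second pair are set beside that of Col3a1, the chain with the widest rise, at chrX:141475169-141475468 (plus strand) for Col4a5, chrX:141474027-141474326 (minus strand) for Col4a6 and chr1:45311288-45311587 (plus strand) for Col3a1. Capitals mark the CCAAT box, the TATA box (letters TATAAA) and the core of NFAT sites (letters TGGAAA), on either strand.
Col4a5: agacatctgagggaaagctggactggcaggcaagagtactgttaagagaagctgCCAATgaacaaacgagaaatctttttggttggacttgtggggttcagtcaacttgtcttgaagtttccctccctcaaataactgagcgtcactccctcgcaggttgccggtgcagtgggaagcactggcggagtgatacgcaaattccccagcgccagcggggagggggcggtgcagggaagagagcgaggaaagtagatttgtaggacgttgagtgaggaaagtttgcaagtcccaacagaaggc
Col4a6: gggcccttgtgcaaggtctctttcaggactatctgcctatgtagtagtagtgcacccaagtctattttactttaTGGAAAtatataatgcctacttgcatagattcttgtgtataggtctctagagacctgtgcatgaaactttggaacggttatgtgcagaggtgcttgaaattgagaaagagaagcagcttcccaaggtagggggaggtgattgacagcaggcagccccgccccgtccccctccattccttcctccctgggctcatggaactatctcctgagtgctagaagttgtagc
Col3a1: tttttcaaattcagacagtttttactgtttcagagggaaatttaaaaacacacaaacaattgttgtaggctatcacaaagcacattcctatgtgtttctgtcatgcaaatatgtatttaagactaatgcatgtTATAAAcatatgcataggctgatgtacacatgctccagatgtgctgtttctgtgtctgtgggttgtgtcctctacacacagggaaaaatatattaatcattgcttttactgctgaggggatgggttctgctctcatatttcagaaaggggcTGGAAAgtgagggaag

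Promoter windows were found for 33 of the 42 chains. CCAAT was present in 13 of the 33 (39.4%), against 37.4% of all 32851 windows in the table. TATAAA was present in 5 (15.2% against 13.6%) and TGGAAA in 5 (15.2% against 21.4%). GGGCGG was present in 21 (63.6% against 35.7%), and it was found in the windows of rising chains such as Col4a1 and Col18a1 and of falling ones such as Col4a5 and Col8a1. All motifs were sought on both strands. Chains were counted by gene, over 36 windows, and the background by window, so the shares are not quite the same measure. Col4a1 and Col4a2 were counted separately, though a GGGCGG match lies within the 78 bases they share. These matches describe letters in the window.

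Types XV and XVIII are the multiplexin collagens of basement membrane zones, and the C-terminal part of the Col18a1 product gives rise to endostatin. For Col18a1, WT read 18.1 and 14.5, ApoeKO 21.2 and 20.2, Dscr1KO 110.2 and 161.2, and double KO 176.3 and 222.1. For Col15a1, WT read 1.6 and 0.7, ApoeKO 1.3 and 1, Dscr1KO 27 and 50.1, and double KO 29.1 and 28.4. On the 4 arrays with Dscr1, Col15a1 was near the bottom of the scale, and Col18a1 was close to the array medians of 15.6 to 21.1. Both were higher on all 4 arrays without Dscr1. Col18a1 rose by 2.92 ± 0.19 (adjusted p = 7.48e-05), or 7.57-fold. Col15a1 differed by 2.93, given as a description for the reason above. With Dscr1 it lies below the added constant of 3.6, so the size of its difference depends on that constant.

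For Col17a1, the transmembrane collagen of hemidesmosomes in the basal epithelium, WT read 5284.4 and 4264.2, ApoeKO 5107.5 and 4952.3, Dscr1KO 3038.5 and 2458.8, and double KO 2561.1 and 1915.3. All 4 corneas without Dscr1 were lower, and Col17a1 fell by 0.99 ± 0.14 (adjusted p = 0.00207). Col7a1, the anchoring fibril chain, rose by 0.45 ± 0.14 (adjusted p = 0.043), with overlapping groups and a call lost without any one of 7 arrays (adjusted p of up to 0.17). Of 5 corneal epithelial markers 1 rose and 1 fell, and Krt12 ranged from 5291.1 to 7884 with Dscr1 and from 6034.1 to 10080.3 without it. Cornified epithelial markers rose in 4 of 5 cases and fell in 1, with sums of 250.4 to 340.3 with Dscr1 and 13074.1 to 17530.6 without. Lor and Krtdap, which rose, read 7.5 or less on intact arrays with Dscr1. They passed only through arrays where they are high and add no support. The part of these epithelial markers in the values of Col17a1 and Col7a1 was not tested.

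**Figure D3:**
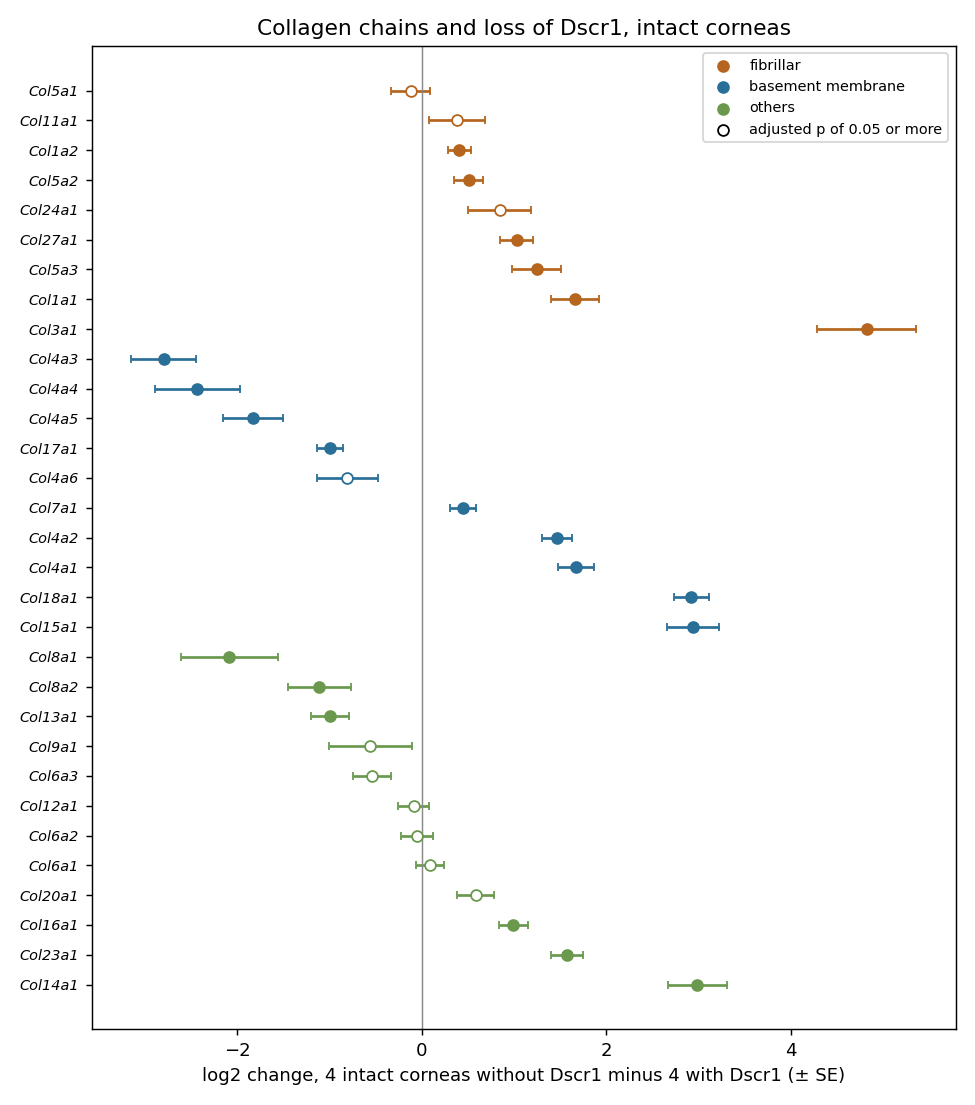
Log2 change of each tested collagen chain between 4 intact corneas without Dscr1 and 4 with it; points are estimates, bars the standard error, and open points have an adjusted p of 0.05 or more. Fibrillar chains lie at or right of -0.12, with Col3a1 at 4.82, while basement membrane chains lie on both sides, from Col4a3 at -2.79 to Col15a1 at 2.93.

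The remaining chains include those of Descemet's membrane. For Col8a1, WT read 835.9 and 758, ApoeKO 558 and 742.8, Dscr1KO 407.4 and 119.8, and double KO 55.2 and 275.4. For Col8a2, its partner, WT read 2566.3 and 1999.5, ApoeKO 1337.6 and 1414.3, Dscr1KO 1411.3 and 543.7, and double KO 507 and 1138.8. Both were lowest in Dscr1KO replicate 2 and double KO replicate 1, and Col8a2 overlapped between the genotypes. Col8a1 fell by 2.08 ± 0.52 (adjusted p = 0.0199) and Col8a2 fell by 1.11 ± 0.34 (adjusted p = 0.0409). The call for Col8a1 was lost without either WT or either ApoeKO array (adjusted p of up to 0.0728), and that for Col8a2 without any one of 6 arrays (adjusted p of up to 0.127).

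The corneal endothelium makes type VIII collagen, and of its 5 markers 3 fell with Dscr1 loss. Their summed intensity was 7449.2 to 8978.8 with Dscr1. It was 5632.9 in Dscr1KO replicate 1, 800.4 in Dscr1KO replicate 2, 1457.9 in double KO replicate 1 and 4199.2 in double KO replicate 2. On arrays with Dscr1 most of this sum is Car3, which read 281.6 in Dscr1KO replicate 2 and 254.1 in double KO replicate 1 and 3614.2 or more on the other 6 intact arrays. Slc4a11 was lowest on the same pair, at 77.9 and 71.1. The other markers did not share this order: Ptgds was highest of all intact arrays in double KO replicate 1, at 853.3, and Cdh2 (158.4) and Slc4a4 (121) were there the highest of the 4 corneas without Dscr1. Col4a4 was also lowest in Dscr1KO replicate 2, and Col4a3 in double KO replicate 1. The part of the endothelium in these collagen values was not tested.

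Col12a1 and Col14a1 encode collagens that decorate the surface of fibrils. For Col12a1, WT read 2586.3 and 1926.8, ApoeKO 1920.3 and 1829.9, Dscr1KO 1986.5 and 1341.4, and double KO 1991.9 and 2591.2. For Col14a1, WT read 39.8 and 29, ApoeKO 60.6 and 55.8, Dscr1KO 479.2 and 404.3, and double KO 185.8 and 564.5. Col12a1 overlapped and differed by -0.09 ± 0.17 (adjusted p = 0.729), whereas Col14a1 was higher on all 4 arrays without Dscr1 and rose by 2.98 ± 0.32 (adjusted p = 0.00061), or 7.92-fold.

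For Col23a1, a transmembrane collagen of epithelia and other cells, WT read 54.2 and 39.8, ApoeKO 169.8 and 111.7, Dscr1KO 187.3 and 177.9, and double KO 331.5 and 337.5. Every group that lacked a gene was above WT, and double KO was highest. Col23a1 rose by 1.58 ± 0.17 (adjusted p = 0.000661). Col16a1, a fibril-associated chain, rose by 0.99 ± 0.16 (adjusted p = 0.00327), and Col13a1, another transmembrane collagen, fell by 0.99 ± 0.21 (adjusted p = 0.00925).

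Type VI collagen forms beaded filaments in the stroma, and its chains did not pass. Col6a1 differed by 0.09 ± 0.15 (adjusted p = 0.675), Col6a2 by -0.05 ± 0.18 (adjusted p = 0.846) and Col6a3 by -0.54 ± 0.20 (adjusted p = 0.0788). Col20a1, at 0.58 ± 0.20 (adjusted p = 0.0607), and Col9a1, at -0.55 ± 0.45 (adjusted p = 0.385), complete the tested chains. Col9a1, a chain of cartilage and of the vitreous, read 71.9 and 62.9 in WT, 65.3 in double KO replicate 1 and 79.1 in sutured WT on day 7, and between 8.7 and 32.6 on the other 8 arrays. The summed intensity of 6 lens markers was 6678.4 and 4813.5 in WT and 4708.8 in sutured WT on day 7, and 688.2 or less on the other arrays. That of 3 retinal markers was 3175.1 in double KO replicate 1 and 255.4 or less elsewhere. The part of lens and retina in the level of Col9a1 was not tested.

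Dependence on single libraries was checked for the 21 calls. With each of the 8 arrays left out in turn, between 15 and 21 chains passed, and 15 chains passed every time. With ApoeKO replicate 1 and Dscr1KO replicate 2, whose labels are in doubt, both left out, 16 passed, and the calls lost were Col1a2, Col5a2, Col8a1, Col8a2 and Col13a1. In 13 of the 21 called chains another probe set met the intensity filter, and 15 of these 16 further sets had the sign of the set used. Among the chains that did not pass there are 8 further sets, of which 5 had the opposite sign (in Col5a1, Col6a2, Col9a1 and Col12a1) and 1, of Col11a1, passed.

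The comparison was also made within the arrays that carry Xist, 3 without Dscr1 and 2 ApoeKO with it. There 10 chains passed, where 5.38% of all genes did (4.64% rising and 0.74% falling). Col1a1, Col3a1, Col4a1, Col4a2, Col14a1, Col15a1, Col16a1, Col18a1 and Col27a1 rose and Col17a1 fell. Among these 10, Col15a1 is a description only. Col3a1 rose by 5.01 and Col1a1 by 2.51. The falls of Col4a3 (-1.94, adjusted p = 0.082), Col4a4 (-1.95, adjusted p = 0.128) and Col4a5 (-1.60, adjusted p = 0.1) did not pass among these 5 arrays. Among intact arrays without Xist there is 1 lacking Dscr1, double KO replicate 2, which allows no test. It lay beyond both WT arrays in the direction of the average for 19 of the 21 chains, all but Col1a2 and Col5a2.

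Dscr1 loss was also compared within each Apoe background, with no array shared. Of the 31 chains, 7 had opposite signs in the WT and ApoeKO backgrounds, and the share over all genes was not counted. With Dscr1 loss these 7 were lower in the former background and higher in the latter. They were Col9a1 (-2.29 and 1.18), Col11a1 (-0.69 and 1.45), Col5a2 (-0.15 and 1.17), Col6a1 (-0.52 and 0.70), Col5a1 (-0.46 and 0.22), Col6a2 (-0.36 and 0.26) and Col12a1 (-0.45 and 0.28), and of these 14 values that of Col5a2 in the ApoeKO background passed. Dscr1KO against WT had 10 chains past the threshold, 6 rising and 4 falling, where 11.8% of all genes passed (7.86% rising and 3.9% falling). Leaving Col15a1 aside they were 9 of 30, with 5 rising. Col3a1 rose by 4.55, Col14a1 by 3.56, Col15a1 by 3.10, Col18a1 by 2.79, Col23a1 by 1.89 and Col5a3 by 1.42. Col4a3 fell by 3.54, Col4a4 fell by 2.93, Col4a5 fell by 2.01 and Col17a1 fell by 0.80. Within intact groups Xist varied only in double KO, so a term for Xist rests on that pair of arrays. It cannot separate sex from genotype in this comparison. With that term, 3 chains passed, Col14a1, Col18a1 and Col9a1, where 3.08% of all genes did (2.1% rising and 0.976% falling). Col9a1 read 65.3 and 10.6 in the double KO pair. The count was 5 without either WT array, 6 without either ApoeKO array and 16 without Dscr1KO replicate 1.

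Double KO against ApoeKO had 14 chains past the threshold, 11 rising and 3 falling, where 19.6% of all genes passed (8.61% falling). Leaving Col15a1 aside they were 13 of 30, with 10 rising. Col3a1 rose by 5.09, Col4a1 by 2.55, Col1a1 by 2.22, Col4a2 by 2.14 and Col5a2 by 1.17. Those that fell were Col4a3 (-2.05), Col4a5 (-1.64) and Col17a1 (-1.18). The count was 8 without ApoeKO replicate 1 and 5 without ApoeKO replicate 2. Double KO against WT, which shares arrays with both comparisons above, had 12 chains past the threshold, 7 rising and 5 falling, where 20.1% of all genes passed (11.4% rising and 8.74% falling), and 6 without WT replicate 2. Leaving Col15a1 aside, the 12 chains of double KO against WT were 11 of 30, with 6 rising. The widest changes there were Col3a1 at 4.67, Col18a1 at 3.35 and Col4a3 at -3.98.

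A difference between these backgrounds was tested as the interaction of the genotypes. By limma no chain passed, and 6 of the 31 had an unadjusted p under 0.05, where 0.00787% of all 12706 genes passed and 962 had such a p. The widest interaction was that of Col9a1 at 3.47 ± 0.91 (adjusted p = 0.535), and it was the single chain to pass without double KO replicate 2. Double KO against Dscr1KO had no chain past the threshold either (0.0236% of all genes passed), with 3 chains and 1365 genes at an unadjusted p under 0.05. Values for Col1a1 there were -0.65 ± 0.37 and for Col4a1 0.67 ± 0.27. These tests do not show that the backgrounds are alike.

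ApoeKO against WT asked what loss of Apoe alone changes. Fibrillar chains were lower in ApoeKO in 9 of 9 cases, and 24 of the 31 chains had a negative difference. The median of the 31 chains was -0.54, against -0.01 over all genes. The share of all genes with a negative difference was not counted. By limma no chain passed when the spread was estimated from all 8 intact arrays, where 0.0236% of all genes passed. At an unadjusted p under 0.05 there were 14 of the 31 chains and 477 of 12706 genes. The difference was -1.77 ± 0.37 for Col1a1 (adjusted p = 0.425), -1.94 ± 0.43 for Col11a1 (adjusted p = 0.502), -1.93 ± 0.50 for Col4a3 and -1.08 ± 0.27 for Col4a1. For Col1a1, Col4a1, Col4a3 and Col11a1 both ApoeKO arrays lay below both WT arrays.

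With the spread taken from these 4 arrays alone, 12 chains passed, where 1.6% of all genes did (0.842% rising and 0.756% falling). Col1a1, Col4a1, Col4a3, Col4a4, Col4a5, Col6a1, Col6a2, Col8a2, Col9a1, Col11a1 and Col16a1 fell, and Col23a1 rose. The result therefore depends on which arrays set the spread. Xist and the lens markers also separate ApoeKO from WT, with lens sums of 357.4 and 88.9 against 6678.4 and 4813.5. The part of either in the collagen values was not tested, and the library labelled ApoeKO replicate 1 has Apoe signal.

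Suturing of the cornea draws in new vessels and leukocytes, and it was compared with the intact state in WT with days 5 and 7 taken as 1 group of 2 arrays. Col23a1 rose from 54.2 and 39.8 to 336.9 on day 5 and 306.4 on day 7, a change of 2.70 ± 0.23 (adjusted p = 0.00372). Col18a1 rose from 18.1 and 14.5 to 44 and 102.5, a change of 1.84 ± 0.37 (adjusted p = 0.0484). These were the 2 chains of 31 that passed, where 1.57% of all genes did (1.45% rising and 0.118% falling). The call for Col18a1 was lost in 12 of the alternative fits, with adjusted p-values from 0.0617 with no filter to 0.575 in a fit of 7 arrays with Dscr1 genotype as a term. That for Col23a1 was lost without WT replicate 2 (adjusted p = 0.0646) and in the fit of 7 arrays, at 1.81 with an adjusted p of 0.398.

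Sutured and intact WT arrays did not overlap in 13 of the 31 chains, 6 higher and 7 lower after suturing, where 56.5% of all genes did not overlap (24.2% higher and 32.2% lower). Most of these did not pass. Col15a1, 1 of the 6 higher and given as a description, went from 1.6 and 0.7 to 10.3 and 20.8 (1.96). Col14a1 went from 39.8 and 29 to 80.3 and 231.8 (1.90 ± 0.55, adjusted p = 0.139). Col3a1 went from 300.3 and 155.9 to 606.1 and 3177.8 (2.66 ± 0.90, adjusted p = 0.198). In all 3, both sutured arrays lay above both intact ones, and day 7 was higher. Col4a3 was lower, at 137 and 197.5 (-1.27 ± 0.48, adjusted p = 0.249). Col12a1 read 2813 and 3238.3 (0.43 ± 0.23, adjusted p = 0.428). Col17a1 read 4518.9 and 4175.5 (-0.13 ± 0.19) and Col8a1 574.5 and 686.5 (-0.34 ± 0.69). Col1a1 at 481.9 and 1247.2, Col5a1 at 453.4 and 1364.5 and Col4a1 at 323.6 and 902.1 were below both intact WT arrays on day 5 and above them on day 7.

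**Figure D4:**
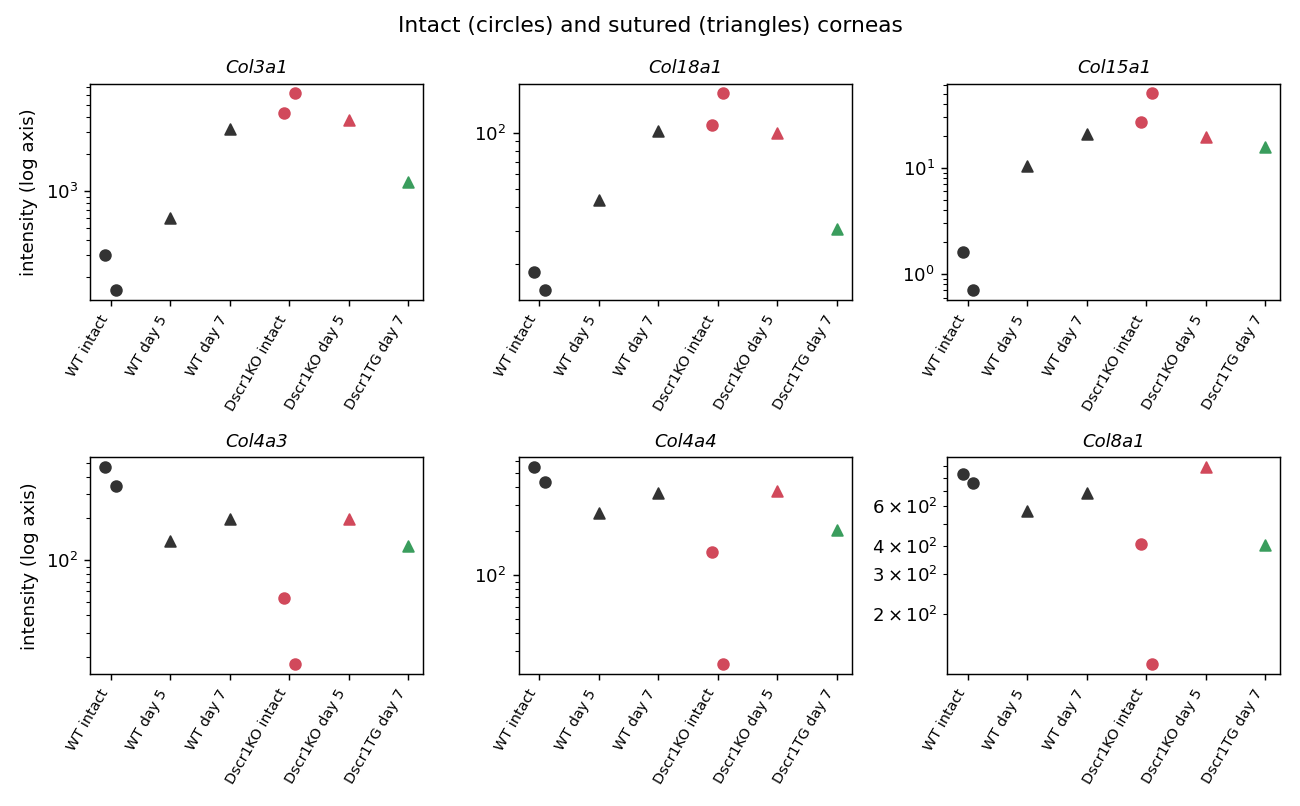
Intensity (log axis) of 6 collagen chains in intact (circles) and sutured (triangles) corneas of WT, Dscr1KO and labelled Dscr1 transgenic mice, 1 point per array. Col3a1, Col18a1 and Col15a1 are higher in sutured than intact WT, while Col4a3, Col4a4 and Col8a1 are higher in sutured than in intact Dscr1KO.

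Day 7 was set against day 5 in WT with 1 array each and no test. On day 7, 28 of the 31 chains were higher, 11 of them at least 2-fold and none lower by as much. The median difference of the 31 chains was 0.67, against 0.07 over all genes. The share of all genes that were higher was not counted. Of all genes, 5.32% differed 2-fold, 3.32% being higher and 2.0% lower. The widest differences were Col3a1 at 2.38, Col9a1 at 2.03, Col11a1 at 1.83, Col5a3 at 1.60 and Col5a1 at 1.58. Blood endothelial markers summed to 194.6 on day 5 and 410.7 on day 7, pericyte and smooth muscle markers to 1097 and 2673.7, and lens markers to 278.5 and 4708.8. Their part in the differences was not tested.

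The library labelled Dscr1 transgenic, of day 7, was set against WT on day 7 in the same way. Its Rcan1 signal was not above that of WT, so the differences are between these 2 arrays and are not given as an effect of the transgene. Of the 31 chains, 30 were lower in the library labelled transgenic, including 9 of 9 fibrillar chains, with a median of -0.79 against -0.07 over all genes. The share of all genes that were lower was not counted. At least 2-fold lower were 12 chains. Of all genes, 4.29% differed 2-fold, 3.53% being lower and 0.756% higher. Col3a1 read 1187.4 against 3177.8, Col14a1 62.4 against 231.8, Col18a1 30.9 against 102.5, Col5a1 501.9 against 1364.5 and Col1a1 519.8 against 1247.2. Col17a1, the exception, read 4351.8 against 4175.5. For 14 of the 31 chains its value lay between those of WT on day 5 and on day 7. The share of all genes in that position was not counted. Blood endothelial markers summed to 178.2 in that library, pericyte and smooth muscle markers to 1148.6 and lens markers to 688.2, which are also below WT on day 7. Their part was not tested, and with 1 array each the difference has no replicate check.

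**Figure D5:**
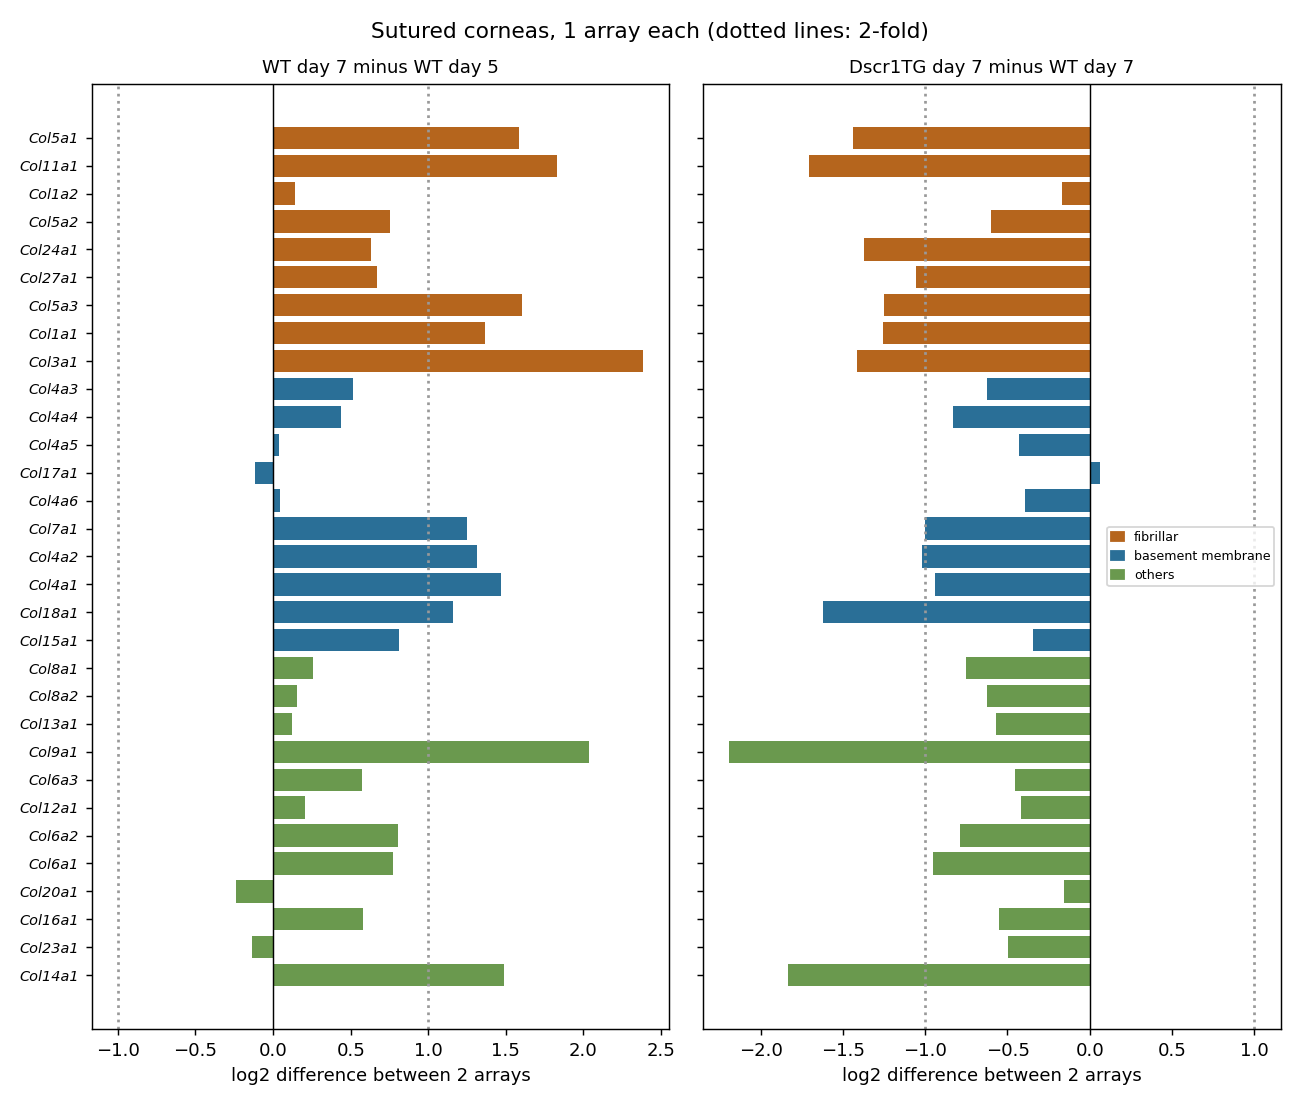
Log2 differences between single arrays for the 31 tested chains, WT day 7 minus WT day 5 (left) and the library labelled Dscr1 transgenic, day 7, minus WT day 7 (right); dotted lines mark 2-fold and there is no error bar, since each arm is 1 array. Col3a1 is at 2.38 on the left and -1.42 on the right.

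Dscr1KO and WT were compared on day 5, again 1 array each. In Dscr1KO 28 of the 31 chains were higher, 8 at least 2-fold and none lower by as much, where 6.1% of all genes differed 2-fold, 4.17% higher and 1.93% lower. The median difference of the 31 chains was 0.74, against 0.06 over all genes. The share of all genes that were higher was not counted. Col3a1 read 3775.3 against 606.1, Col14a1 272.4 against 80.3, Col4a1 999.9 against 323.6, Col4a2 352.4 against 134.1, Col1a1 1108.1 against 481.9 and Col18a1 99.4 against 44. Col4a3, at 198.1 against 137, and Col8a1, at 893.3 against 574.5, were not lower in sutured Dscr1KO. Markers differed between these 2 arrays as well. In Dscr1KO against WT, blood endothelial markers summed to 620.2 against 194.6 and pericyte and smooth muscle markers to 3272.2 against 1097. Pigment and iris markers summed to 1738.7 against 490.8, conjunctival markers to 9005.8 against 4921.5 and neutrophil markers to 1103.2 against 10850.9. The neutrophil sums are mostly S100a8 and S100a9, while Csf3r went the other way, at 70.8 against 62.9. Opposite to their lists were also Muc5ac, at 1.3 against 2.8, and Myh11, at 11.2 against 19. The part of these markers in the day 5 differences was not tested. Against the intact Dscr1KO mean, the sutured Dscr1KO array was at least 2-fold higher in 10 chains and lower by as much in none, where 9.96% of all genes differed 2-fold, 4.86% higher and 5.09% lower. They include Col4a4 (2.55), Col4a3 (2.53), Col8a1 (1.99), Col4a5 (1.97) and Col8a2 (1.51). Both intact Dscr1KO arrays carry Xist and the sutured one does not, so sex and suturing cannot be told apart here. Corneal endothelial markers summed to 8546.7 in sutured Dscr1KO, against 5632.9 and 800.4 in intact Dscr1KO. Pigment and iris markers were also higher, at 1738.7 against 232.3 and 349.5. Lower in sutured Dscr1KO were cornified epithelial markers, at 315.2 against 13074.1 and 14996.1. So were neutrophil markers, at 1103.2 against 8427.2 and 19502.8, and conjunctival markers, at 9005.8 against 14550.4 and 20462.6. The part of these cells and tissues was not tested.

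Whether suturing acted differently in Dscr1KO was put to a fit of 11 arrays. The Dscr1KO sutured arm is 1 array of day 5, assumed to vary like the other groups. It is set against WT arrays of days 5 and 7, so the difference has no replicate check. Xist read 6 in sutured Dscr1KO, against 4104 and 5385.2 in intact Dscr1KO. Sex and suturing therefore cannot be told apart within Dscr1KO, nor sex and the difference between the genotypes in this fit. The fit gave 1 chain, Col23a1, with a change smaller by 2.23 in Dscr1KO (-2.23 ± 0.36, adjusted p = 0.0273), where 1.03% of all genes passed (0.126% with a larger and 0.905% with a smaller change in Dscr1KO). It read 253.7 in sutured Dscr1KO, against 187.3 and 177.9 in the intact state. With the WT array of day 7 left out, so that both sutured arms were of day 5, the adjusted p was 0.0726. It was 0.082 without the WT array of day 5, and 0.0596 and 0.132 without intact WT replicates 1 and 2. The value for Col23a1 therefore stands as a description, and 9 chains passed without Dscr1KO replicate 1.

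Genes that make, cross-link and cleave collagen were read from a list of 43, of which 40 were tested. With Dscr1 loss 17 rose (42.5%) and 5 fell (12.5%), where 16.3% of all genes rose and 15.4% fell. Among 18 genes of synthesis and folding 5 rose (27.8%) and 3 fell (16.7%), which is near those shares, with the prolyl hydroxylase subunit P4hb at 0.54 ± 0.14 (adjusted p = 0.022) and the galactosyltransferase gene Colgalt2 at -2.35 ± 0.34 (adjusted p = 0.0021). The chaperone gene Serpinh1 did not pass (0.38 ± 0.24, adjusted p = 0.258). Of 9 genes of processing and cross-linking 5 rose and 1 fell. Lox, the lysyl oxidase that cross-links fibrils, rose by 2.21 ± 0.27 (adjusted p = 0.00106), its relatives Loxl3 by 1.21, Loxl1 by 1.02 and Loxl4 by 0.84, and Sparc, a collagen-binding matrix protein gene, by 0.95. Pcolce2, an enhancer of procollagen cleavage, fell by 0.69.

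Of 6 collagen-cleaving enzymes 5 rose: Mmp13, a collagenase, by 6.69 ± 0.77 (adjusted p = 0.000838), the gelatinase genes Mmp9 by 3.88 and Mmp2 by 2.17, the neutrophil collagenase gene Mmp8 by 2.92 and the cathepsin gene Ctsk by 2.73. Mmp14 differed by 0.02 ± 0.16 (adjusted p = 0.944). Neutrophil markers rose in 3 of 3 cases, with sums of 106.1 to 265.2 with Dscr1 and 8427.2 to 19502.8 without. Macrophage markers rose in 3 of 4, with sums of 246.5 to 614.5 and, without Dscr1, of 1731.6 to 3392.8. The part of these cells in the enzyme values was not tested. Of 7 receptors Lair1 (1.59) and Itgb1 (0.40) rose and Ddr1 (-1.23) fell. These 3 of 7 are also near the shares over all genes. In sutured WT 2 of the 40 rose (5.0%, against 1.45% of all genes), Lox by 2.56 ± 0.43 (adjusted p = 0.0228) and the integrin gene Itgb1 by 0.93 ± 0.16 (adjusted p = 0.0251). Mmp13 differed by 4.36 ± 1.06 (adjusted p = 0.0814) and did not pass.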

How the data were processed

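Whole-cornea RNA was hybridised to Affymetrix arrays, 1 per sample. Extraction with RNeasy and biotin labelling of cRNA are given per the labels' protocols. The deposited intensity values are linear probe-set signals scaled by the authors, whose mean on each array is 100 once the lowest and highest 2% are trimmed (array medians 15.6 to 21.1). Which software made them is not given here. Of 45101 probe sets, 34958 have 1 gene symbol, 932 several and 9211 none, and only the first were used.

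Values were transformed as log2(intensity + 3.6), the added constant being the 20th percentile of all values. Genes with a mean at or above the 40th percentile of probe sets, 12706, went into limma (version 3.58.1, R 4.3.3), using empirical Bayes with a trend on intensity, and calls were made at 0.05 after Benjamini-Hochberg adjustment. There was 1 coefficient per group over the 8 intact arrays, with the 2 WT sutured arrays added for suturing. The fit was tested on simulated data. Comparisons with 1 array in an arm have no test and use a 2-fold difference. Suturing by Dscr1 genotype, a fit added after values were seen, has 1 array in an arm, and its values are given as a description.

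Chains given in every sample are the 8 marker chains named for the set, the 3 further chains per class with the largest passing change in the Dscr1 average, and the 3 with the largest change on suturing; other chains past a threshold, and partners in a trimer, are given by their change. The chains, the list of collagen-related genes and the cell markers were chosen with earlier results of these data known. Alternatives were other added constants (0.6 and 10.2), filters, quantile normalization, every probe set by itself, only the groups compared, a replicate block, a term for Xist, left-out arrays and both libraries of doubtful label left out. Plots used matplotlib 3.10.9 (python 3.11.15).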

Additional observations from a re-analysis of the deposited data

Results flagged for a closer look

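For 11 chains the response to suturing in WT and Dscr1KO is given here. In 10 of them every sutured array lay beyond every intact array of its genotype, one way in WT and the other way in Dscr1KO, and in 1 the difference passed its test. By the sign of the mean alone, 20 of the 31 chains had opposite directions. Of these, 13 were lower in WT and higher in Dscr1KO and 7 the other way. The share of all genes with either pattern was not counted, so neither count is a result about collagens. The Dscr1KO sutured arm is 1 array of day 5, set against WT sutured arrays of days 5 and 7. It lacks Xist, which both intact Dscr1KO arrays carry, so sex and suturing cannot be told apart within Dscr1KO. Values are the suturing change in Dscr1KO minus that in WT on the log2 scale, from limma with Benjamini-Hochberg adjustment.

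In 6 chains both sutured WT arrays were below both intact ones and the sutured Dscr1KO array was above both of its own: Col4a3 at 3.80 (adjusted p = 0.0585), Col4a4 at 3.20 (0.17), Col4a5 at 2.19 (0.177), Col4a6 at 1.63 (0.291), Col8a1 at 2.33 (0.324) and Col8a2 at 1.89 (0.247). In 4 chains the arrays were separated the other way, higher in WT and lower in Dscr1KO. They were Col3a1 at -3.11, Col14a1 at -2.59, Col15a1 at -2.77 and Col18a1 at -2.25. Col15a1 is again a description only. These 10 were picked for their directions, and none passed the test. The remaining chain, Col23a1, was at -2.23 ± 0.36 (adjusted p = 0.0273), having risen by 2.70 in WT and differed by 0.47 in Dscr1KO. With the WT array of day 7 left out, which leaves both sutured arms at day 5, its adjusted p was 0.0726, and its single-array arm allows no replicate check. The 6 chains of the former set had lower means in intact Dscr1KO than in intact WT, and intact Dscr1KO replicate 2 had the lower value in Col4a3, Col4a4, Col4a5, Col4a6, Col8a1 and Col8a2.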

How the results depend on the processing

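Counts of chains past the threshold kept within 1.5 times of the reported ones under the pseudocounts, filters, quantile normalization and separate probe sets for the Dscr1 average (19 to 22). Counts that moved further were the following. Dscr1KO against WT had 3 with a term for Xist, ApoeKO against WT 12 with only those groups fitted, the Dscr1 average 10 within arrays with Xist, and the interaction 1 with a term for Xist. WT suturing had 1 with the larger constant, 1 with no filter, 1 without both doubtful libraries and 0 in the fit of 7 arrays. Suturing by Dscr1 genotype had 2 with the larger constant. The causes were not tested. The term for Xist rests on the double KO pair alone, since Xist did not vary within the other intact groups.

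With each array left out in turn, the counts ran from 5 to 16 for Dscr1KO against WT, 0 to 0 for ApoeKO against WT, 6 to 16 for double KO against WT, 5 to 21 for double KO against ApoeKO, 0 to 0 for double KO against Dscr1KO, 15 to 21 for the Dscr1 average, 0 to 1 for the interaction, 0 to 3 for WT suturing and 0 to 9 for suturing by Dscr1 genotype.

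The replicate numbers of the titles gave no sign of pairing samples. Same-numbered arrays deviated with correlations of -0.05 to 0.07, which does not exclude pairing. With the replicate block, 10 chains passed for Dscr1KO against WT, 0 for ApoeKO against WT, 11 for double KO against WT, 14 for double KO against ApoeKO, 0 for double KO against Dscr1KO, 18 for the Dscr1 average and 0 for the interaction.

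Direction turned for small differences that had not passed. For the Dscr1 average Col5a1 was at 0.022 with a term for Xist and 0.35 within arrays with Xist, and its other probe sets were at 0.43 and 0.51. Col12a1 was at 0.072 without both doubtful libraries and 0.0078 with a term for Xist. Its other probe set that met the intensity filter was at 0.19. In the suturing fit of 7 arrays Col5a1 was at 0.0098, Col8a1 at 0.59 and Col17a1 at 0.11. With an array left out, the values ran from -0.29 to 0.0463 for Col5a1 and from -0.23 to 0.0544 for Col12a1 in the Dscr1 average, and for suturing from -0.72 to 0.64 for Col1a1, from -1.03 to 0.55 for Col5a1, from -0.19 to 1.28 for Col4a1 and from -0.28 to 0.0267 for Col17a1. Of 593 values of named chains under an alternative, 503 kept direction and side of the threshold, 71 kept direction only and 19 turned.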
